A study of Mus musculus with 35 samples.

Results

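S100 proteins are small calcium-binding proteins that work as dimers. Inside the cell they bind annexins, myosin and other partners at membranes and the cytoskeleton, and several of them act on other cells after release. S100A8 and S100A9 together form calprotectin, the leading cytosolic protein of neutrophils and a ligand of Toll-like receptor 4 and of RAGE, and both are widely used to mark granulocytic myeloid-derived suppressor cells (MDSC). The genes described here are S100a1, S100a4, S100a6, S100a8, S100a9, S100a10, S100a11 and S100a13. They were taken by symbol, with earlier results of these data known, and are 8 of the 53379 gene identifiers in the count table of the series. Another 8 mouse S100 genes, S100a3, S100a5, S100a7a, S100a14, S100a16, S100b, S100g and S100z, served for comparison.

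RNA was sequenced from MDSC of C57BL/6 mice carrying orthotopic pancreatic tumors of T110299 cells, a single KPC tumor line. All mice bore tumors, so no group came from tumor-free animals, and the labels give no age. Treated mice received poly(I:C) complexed with polyethylenimine (poly(I:C)c, 50 µg i.v.) on days 18 and 20. The protocol names glucose as the control, while the paper's account of the sequenced mice says only that the others were left untreated. After magnetic enrichment of CD11b+ cells, flow cytometry separated them into PMN-MDSC (CD11b+ Ly6C lo Ly6G+) and M-MDSC (CD11b+ Ly6C hi Ly6G-). Untreated and treated PMN-MDSC and M-MDSC from spleen and from tumor made 8 sorted groups, and unsorted tumor of untreated mice (bulk tumor) made the ninth. Each group had 4 libraries, except for 3 of treated splenic PMN-MDSC and 3 of treated tumor M-MDSC. The sorted libraries held 793070 to 4357105 counts (median 2459368) and the bulk libraries 3771590 to 8886115. Levels are given as CPM, counts divided by the library total and brought to a common scale by TMM over the 34 libraries, and levels of different genes are compared only as FPKM, which also divides by exon length. In the smallest library 3 counts, taken as the lowest reliable level, were 3.78 CPM of its unscaled total. The libraries were amplified by PCR without molecular identifiers, so this floor and the count intervals below cover counting error only.

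The sorting labels were checked against markers fixed by name. The summed CPM of 10 neutrophil markers averaged 30780 (range 21646 to 39905) in PMN-MDSC and 4762 (2751 to 6606) in M-MDSC from untreated spleens. In tumors of untreated mice the same sum was 3243 (1357 to 4141) in PMN-MDSC and 542 (336 to 757) in M-MDSC. PMN-MDSC from untreated tumors also held 11609 CPM (9962 to 12992) of 6 macrophage markers and 6631 CPM of 6 monocyte markers, and their Ly6g, the sorting antigen, stood at 2.90 CPM (0 to 8.98) against 68.0 CPM (37.5 to 101) in the spleen. Cxcr2, a neutrophil chemokine receptor, was nevertheless at 226 CPM in these libraries and at 11.4 CPM or less in the mean of every M-MDSC group. The libraries labelled PMN-MDSC from tumor thus held neutrophil and macrophage transcripts together, and every value for this group below refers to that mixture. M-MDSC from tumors held macrophage transcripts as well, 5414 CPM (3335 to 7857) of the same 6 markers in untreated and 13637 CPM (4866 to 26065) in treated mice, against 791 and 391 CPM in the spleen. In bulk material of this kind, fewer cells of a type and less RNA per cell cannot be told apart. Among the remaining lists, 4 T cell markers summed to at most 5.15 CPM, 4 B cell markers to at most 48.6 CPM, 4 erythroid markers to at most 99.2 CPM, 4 acinar markers to at most 31.7 CPM and 4 fibroblast markers to at most 68.3 CPM in the mean of any sorted group.

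Of the libraries, 3 were set apart by markers of other cell types or by depth: treated tumor M-MDSC library 3 (Ly6c2 at 2.72 CPM, against 409 and 584 in the other libraries of the group, and a macrophage marker sum of 26065 CPM, against 9980 and 4866), M-MDSC library 4 from tumors of untreated mice (793070 counts) and PMN-MDSC library 1 from spleens of untreated mice (Cd74 at 2762 CPM, against 779 to 1098). Several results that rest on them are given with and without them. Others stood out in single lists: treated splenic M-MDSC library 4 for B cell markers (97.3 CPM, against 9.40 to 15.7) and T cell markers (18.2 CPM, against 0.606 to 1.01), and PMN-MDSC library 1 from untreated tumors for epithelial markers (600 CPM, against 87.4 to 375) and for a low neutrophil sum (1357 CPM, against 3438 to 4141).

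All 8 genes lie on mouse chromosome 3 (GRCm38). The first cluster runs from S100a1 (chr3:90511034-90514392, minus strand) and S100a13 (chr3:90514435-90524581, plus), whose ends are 42 bases apart, through S100a4 (chr3:90603771-90606045, plus), S100a6 (chr3:90612882-90624181, plus) and S100a8 (chr3:90668978-90670035, plus) to S100a9 (chr3:90692632-90695721, minus). S100a11 (chr3:93520488-93526287, plus) and S100a10 (chr3:93555080-93564643, plus) sit together 2824766 bases further on. S100a4 overlaps Gm42674 on the same strand, so reads of the pair could have been split and its counts are uncertain to that extent. The pseudogene S100a11-ps on chromosome 12 drew 6 counts over the 34 libraries against 17441 for S100a11.

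Neighbours in this cluster behaved very differently, and the promoter windows of 4 of them are shown for that reason: the pair S100a8 and S100a9, which was high in PMN-MDSC, S100a4, which was high in M-MDSC, and S100a13, whose level varied least. Sequences are from RefSeq on GRCm38.p6, 250 bases before to 50 after the annotated start, 5′ to 3′ on the strand of the gene. Capitals mark matches, on either strand, to the C/EBP core TTGCNNAA, the PU.1 core GAGGAA or the TATA box TATAAA. The positions are S100a8 chr3:90668821-90669120 (plus), S100a9 chr3:90695672-90695971 (minus), S100a4 chr3:90603520-90603819 (plus) and S100a13 chr3:90514185-90514484 (plus), the last of which overlaps the window of S100a1.
S100a8: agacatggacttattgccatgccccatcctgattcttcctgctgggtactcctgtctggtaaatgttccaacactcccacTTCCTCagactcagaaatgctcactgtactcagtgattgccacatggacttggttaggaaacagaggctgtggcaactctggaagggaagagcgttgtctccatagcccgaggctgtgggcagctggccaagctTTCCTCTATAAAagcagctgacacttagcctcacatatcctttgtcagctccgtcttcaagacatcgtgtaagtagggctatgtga
S100a9: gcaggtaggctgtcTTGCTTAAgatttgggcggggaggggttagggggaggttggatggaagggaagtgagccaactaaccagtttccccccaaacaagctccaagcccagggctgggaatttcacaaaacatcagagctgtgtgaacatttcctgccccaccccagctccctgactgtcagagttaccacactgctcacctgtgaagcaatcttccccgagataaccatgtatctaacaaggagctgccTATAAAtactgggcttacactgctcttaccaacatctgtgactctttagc
S100a4: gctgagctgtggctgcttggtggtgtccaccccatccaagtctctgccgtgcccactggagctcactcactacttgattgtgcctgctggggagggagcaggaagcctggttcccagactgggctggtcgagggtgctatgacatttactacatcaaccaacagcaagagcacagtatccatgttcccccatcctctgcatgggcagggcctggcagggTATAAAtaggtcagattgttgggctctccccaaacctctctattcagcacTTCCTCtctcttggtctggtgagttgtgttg
S100a13: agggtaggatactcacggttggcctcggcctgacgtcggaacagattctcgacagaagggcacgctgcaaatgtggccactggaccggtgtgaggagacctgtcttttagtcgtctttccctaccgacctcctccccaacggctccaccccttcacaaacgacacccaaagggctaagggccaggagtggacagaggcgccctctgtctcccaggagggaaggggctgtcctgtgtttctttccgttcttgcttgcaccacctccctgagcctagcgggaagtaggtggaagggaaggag
The S100a8 window held GAGGAA, read on the minus strand, at -170 and -36 and TATAAA at -30 from the start. The S100a9 window held TTGCNNAA at -236 and TATAAA at 1, and the S100a4 window TATAAA at -31 and GAGGAA on the minus strand at 20. No motif of this set, which also included the interferon-response core, 2 copies of GAAA with 2 bases between them, was found in the windows of S100a13, S100a1 or S100a6, and S100a11 held GAGGAA alone at -153. Of 32851 RefSeq windows of this length, 10.8% held TTGCNNAA, 28.3% GAGGAA, 3.44% the interferon-response core and 13.6% TATAAA, so single matches of this kind are common. S100a10 is named only.

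The 8 genes fell into 3 sets over the sorted groups. S100a8, S100a9, S100a6 and S100a11 were highest in PMN-MDSC from spleen, and S100a4 and S100a10 were highest in M-MDSC. S100a1, at 1.69 to 9.35 CPM in the group means, and S100a13, at 22.4 to 41.1 CPM, followed neither pattern. Per exon length, S100a9 led every spleen group, with 13836 FPKM in untreated and 27335 FPKM in treated PMN-MDSC, and S100a8 followed at 4336 and 11609 FPKM. In M-MDSC from untreated tumors the order was different, with S100a11 at 233 FPKM and S100a10 at 150 FPKM above S100a9 at 106 FPKM. The ratio of the highest to the lowest mean CPM among the sorted groups was 325 for S100a8, 258 for S100a9, 159 for S100a10, 128 for S100a4, 12.6 for S100a6, 11.8 for S100a11, 5.52 for S100a1 and 1.84 for S100a13. Groups next to each other in the order of means mostly overlapped in their libraries, in 8 of 8 neighbouring pairs for S100a13, in 5 of 8 for S100a9 and in 7 of 8 for each of the other genes.

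**Figure D1:**
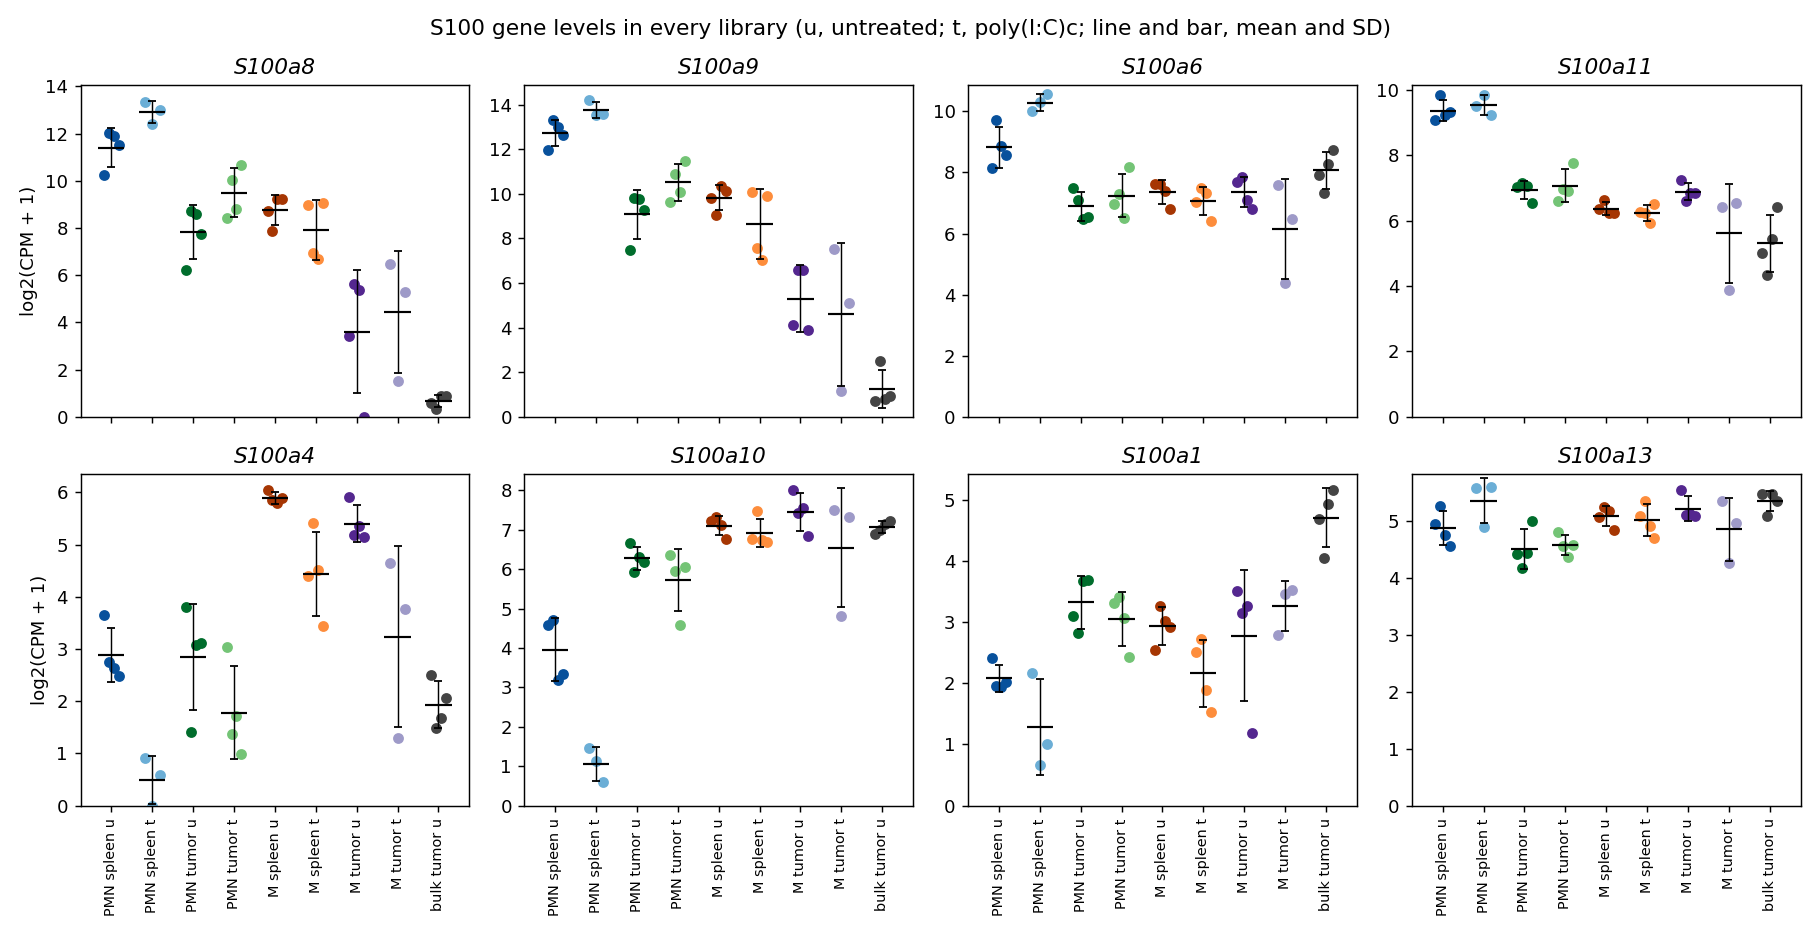
Level of the 8 S100 genes in every library, in TMM-scaled CPM on a logarithmic axis, by group; each point is a library and bars mark group means. The means of S100a8 and S100a9 are highest in PMN-MDSC from spleen and lowest in bulk tumor, whereas those of S100a4 and S100a10 are lowest in PMN-MDSC from spleens of treated mice.

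S100a8, the smaller partner of calprotectin, was measured at 1207, 4169, 3767 and 2894 CPM in the 4 PMN-MDSC libraries from untreated spleens and at 422, 235, 598 and 602 CPM in the M-MDSC libraries. S100a9, its partner, stood at 4038, 10284, 8182 and 6387 CPM in the same PMN-MDSC and at 896, 522, 1294 and 1131 CPM in the same M-MDSC. For both genes every PMN-MDSC library lay above every M-MDSC library. Compared within untreated spleens, S100a8 was higher in PMN-MDSC by 2.48 ± 0.39 on the log2 scale (SE; edgeR's quasi-likelihood F-test with Benjamini-Hochberg adjustment over all genes tested, adjusted p = 0.00049) and S100a9 by 2.69 ± 0.33 (adjusted p = 9.5e-05). Of the 8 genes 7 reached the mean of 25 counts needed for testing in this comparison, and 4 rose and 2 fell, where 30.9% and 33.4% of all 8579 genes tested were called higher and lower. Under upper-quartile scaling these shares were 23.8% and 43.3%, and the member calls stood.

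S100a6, or calcyclin, which binds the ubiquitin-ligase adaptor Cacybp, and S100a11, which binds annexin A1, shared the direction of calprotectin in the spleen. S100a6 was at 281, 849.5, 469 and 382 CPM in untreated splenic PMN-MDSC and at 196, 195, 166 and 111 CPM in M-MDSC. S100a11 was at 545, 914, 602 and 634 CPM in the former and at 80.9, 98.6, 74.2 and 74.4 CPM in the latter. Neither gene overlapped between the cell types. S100a6 was 2.52-fold higher in PMN-MDSC (log2 1.34 ± 0.29, adjusted p = 0.0029) and S100a11 7.09-fold (2.83 ± 0.16, adjusted p = 1.8e-06).

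S100a4, a partner of non-muscle myosin that is linked to cell motility, and S100a10, the annexin A2 partner p11, went the other way. S100a4 was at 65.6, 56.6, 54.5 and 58.6 CPM in untreated splenic M-MDSC and at 11.5, 5.75, 5.23 and 4.60 CPM in PMN-MDSC. S100a10 was at 148, 159, 137 and 107 CPM in M-MDSC and at 22.8, 25.2, 8.05 and 9.19 CPM in PMN-MDSC. Both were lower in every PMN-MDSC library, S100a4 by 3.22 ± 0.29 on the log2 scale (change of -3.22, adjusted p = 1.7e-05) and S100a10 by a change of -3.29 ± 0.34 (adjusted p = 3.7e-05). S100a13, known for its part in the release of FGF1, differed by -0.40 ± 0.17 (adjusted p = 0.066) and was called lower without the 3 libraries that stood apart (-0.45, adjusted p = 0.049).

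In treated spleens the same 6 genes were called, 4 higher and 2 lower in PMN-MDSC, against 28.8% and 32.4% of all genes (21% and 40.5% under upper-quartile scaling). The 2 lower ones, S100a4 and S100a10, passed the count minimum through M-MDSC alone, so that their calls are no more than the ratios given below. S100a8 was at 10498, 5515 and 8156 CPM in PMN-MDSC and at 503, 121, 103 and 532 CPM in M-MDSC, a log2 difference of 4.52 ± 0.69 (adjusted p = 0.00084). S100a9 was at 18687, 11795 and 12325 CPM against 1082, 186, 131 and 952 CPM (4.44 ± 0.80, adjusted p = 0.0019). Within M-MDSC of treated spleens the libraries split into a higher and a lower pair for both genes, and their neutrophil marker sum ranged from 743 to 3805 CPM. S100a6 differed by 3.04 ± 0.28 (adjusted p = 0.00011) and S100a11 by 3.16 ± 0.23 (adjusted p = 6.3e-05). S100a10 fell to 5 counts in all over the 3 treated splenic PMN-MDSC libraries and S100a4 to 2 counts, so their ratios were taken from summed counts: M-MDSC held 122 times (95% interval 52.0 to 375) the level of S100a10 and 59.7 times (16.4 to 495) that of S100a4.

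In tumors the differences between the cell types were less certain. In untreated tumors S100a8 was at 73.3, 417, 386 and 215 CPM in PMN-MDSC and at 9.80, 48.6, 40.9 and 0 CPM in M-MDSC, the 0 belonging to the library of 793070 counts. S100a9 was at 175, 910, 868 and 612 CPM against 16.3, 95.8, 94.8 and 14 CPM. The cell types did not overlap for either gene, yet the spread within them was wide, and S100a9 passed the test (log2 3.49 ± 0.82, adjusted p = 0.036) while S100a8 did not (3.35 ± 0.89, adjusted p = 0.056), although DESeq2 called it (adjusted p = 0.016) and edgeR did without PMN-MDSC library 1. Libraries of the same mice were not matched in this fit. The call of S100a9 was lost when any library but PMN-MDSC library 1 was left out, and without the libraries that stood apart its adjusted p was 0.068. Here 1 gene was higher and 2 were lower of 7 tested, against 7.25% and 5.73% of all 7623 genes.

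S100a4 and S100a10 were the firmer pair in untreated tumors. S100a4 was at 59.3, 35.4, 40.1 and 34.5 CPM in M-MDSC and at 12.9, 1.66, 7.42 and 7.66 CPM in PMN-MDSC, a change of -2.50 ± 0.39 (adjusted p = 0.0013). S100a10 was at 256, 170, 187 and 114 CPM in M-MDSC and at 100.3, 60.3, 78.1 and 71.3 CPM in PMN-MDSC, a change of -1.21 ± 0.23 (adjusted p = 0.0047). Neither overlapped, and both calls stood with each library left out. S100a11, called in the spleen, stood at 0.08 ± 0.18 (95% interval -0.28 to 0.44, adjusted p = 0.83), S100a6 at -0.46 ± 0.27 (adjusted p = 0.31) and S100a13 at -0.69 ± 0.23 (adjusted p = 0.068).

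Among treated tumors 0 of 7 members were called by edgeR between the cell types, against 0.369% of 8955 genes higher and 0.00% lower. Unadjusted p was under 0.05 for 2 members and DESeq2 called 2. S100a4 was below the count minimum here, at 7.21, 1.60, 2.30 and 0.976 CPM in PMN-MDSC and 24.1, 1.46 and 12.6 CPM in M-MDSC, which overlapped through M-MDSC library 3. In the fit without a minimum it was called lower in PMN-MDSC with that library (-1.94 ± 0.50, adjusted p = 0.0071) and without it (-2.48 ± 0.48, adjusted p = 5.4e-05). S100a8 was at 347, 1042, 450 and 1632 CPM in PMN-MDSC and at 88.2, 1.88 and 37.8 CPM in M-MDSC, with a log2 difference of 4.36 ± 1.14 (95% interval 2.12 to 6.60, adjusted p = 0.22). S100a9 was at 785, 1897, 1081 and 2848 CPM against 182, 1.25 and 33.7 CPM (4.52 ± 1.32, adjusted p = 0.25). The low values of 1.88 and 1.25 CPM are those of M-MDSC library 3, and without the libraries that stood apart the differences were 3.78 (adjusted p = 0.16) and 3.93 (adjusted p = 0.17). Without M-MDSC library 2 they were 5.49 and 6.60, with neither called.

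Calprotectin transcripts were much lower in tumor than in spleen. In untreated PMN-MDSC, S100a8 changed by -3.29 ± 0.54 from spleen to tumor (adjusted p = 0.00047) and S100a9 by -3.33 ± 0.49 (adjusted p = 0.00025), that is 9.80-fold and 10.04-fold lower. In untreated M-MDSC the changes were -4.08 ± 0.69 (adjusted p = 0.0030) and -4.05 ± 0.65 (adjusted p = 0.0021). In treated PMN-MDSC they were -3.12 ± 0.57 (adjusted p = 0.0021) and -3.02 ± 0.49 (adjusted p = 0.0012). No tumor library reached the lowest spleen library of its group in these 3 comparisons. In treated M-MDSC neither gene passed, at -2.92 ± 1.13 (adjusted p = 0.17) and -3.05 ± 1.4 (adjusted p = 0.24). Without the libraries that stood apart these were -2.33 (adjusted p = 0.27) and -2.46 (adjusted p = 0.40), and S100a9 reached -5.12 without tumor library 2. In 1 fit over all groups both genes passed, at -2.96 and -3.09. In that comparison 0 of 7 members were called by edgeR, with 1 at an unadjusted p under 0.05 and 0 called by DESeq2, against 5.20% of all genes higher and 0.776% lower.

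**Figure D2:**
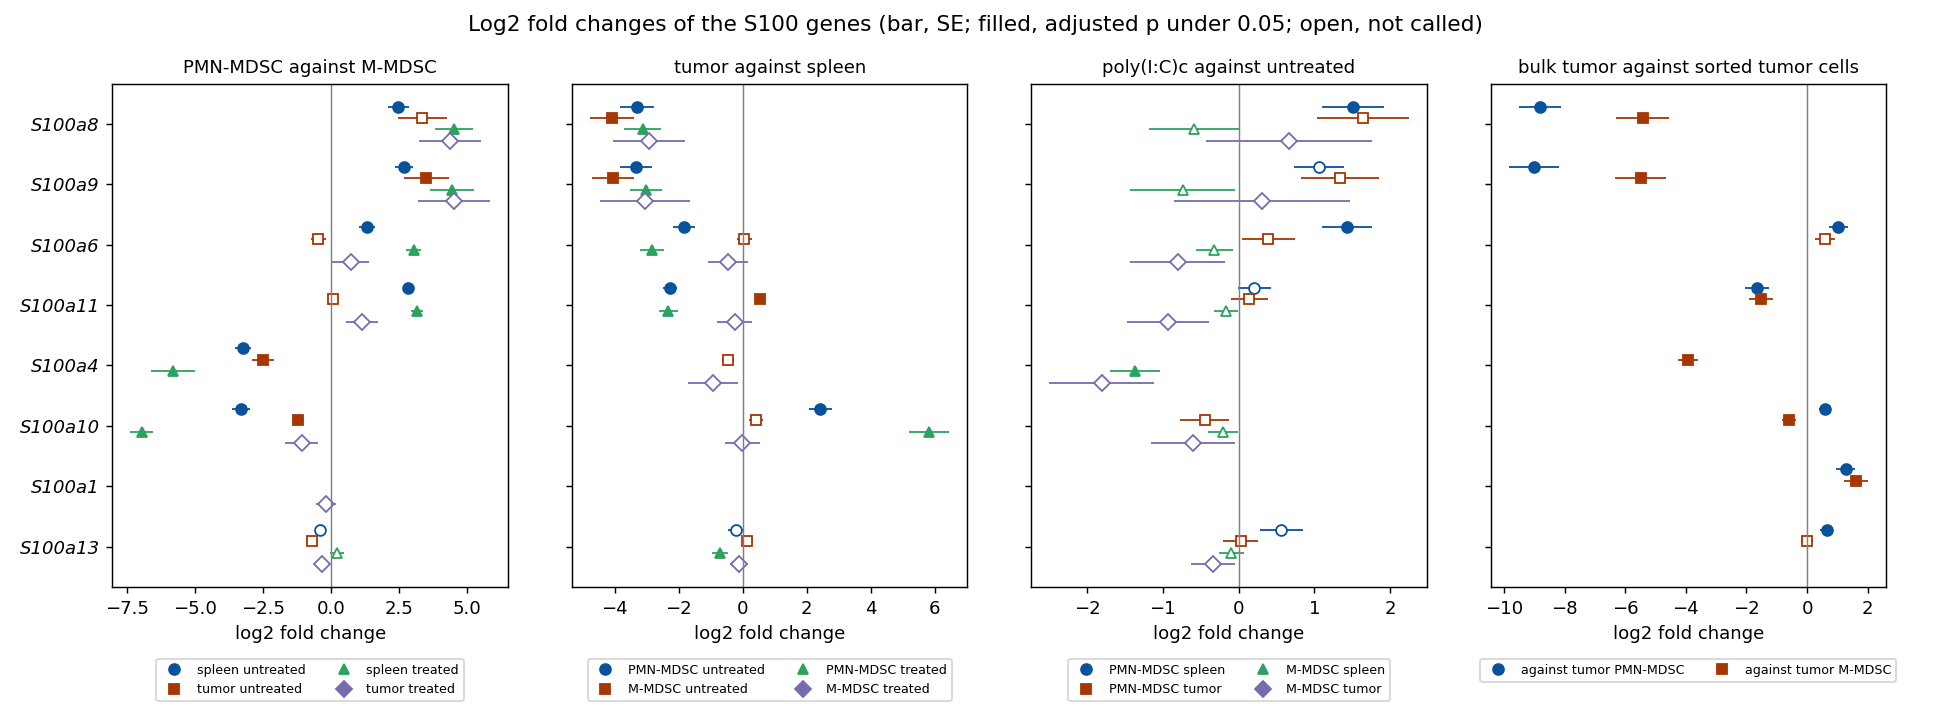
Log2 fold change of each S100 gene in the comparisons of cell type, compartment, treatment and bulk tumor, with bars of the SE. Filled points passed an adjusted p of 0.05 in edgeR. For S100a8 and S100a9 the bars are widest where treated tumor M-MDSC enter.

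S100a6 and S100a11 fell with calprotectin in tumor PMN-MDSC and S100a10 rose. In untreated mice S100a6 went from 281 to 849.5 CPM in the spleen to 177, 134.5, 87.1 and 92.8 CPM in the tumor (-1.83 ± 0.35, adjusted p = 0.0013), and S100a11 to 130.3, 141, 132 and 91.9 CPM (-2.28 ± 0.22, adjusted p = 2.1e-05). S100a10 rose from at most 25.2 CPM in the spleen to at least 60.3 CPM in the tumor (2.43 ± 0.36, adjusted p = 0.00028). Thus 1 gene was higher and 4 were lower of 6 tested in untreated PMN-MDSC, where 29.4% and 29.7% of 7971 genes were called. In treated PMN-MDSC 1 was higher and 5 were lower, against 28.2% and 25.4% (34% and 18.8% under upper-quartile scaling). There S100a6 changed by -2.82 ± 0.38 (adjusted p = 0.00054), S100a11 by -2.32 ± 0.30 (adjusted p = 0.00048) and S100a13 by -0.70 ± 0.26 (adjusted p = 0.048, lost when any library but spleen library 2 was left out). S100a10 was at 80.3, 60.4, 23 and 65.9 CPM in treated tumor PMN-MDSC and at 1.74, 1.18 and 0.505 CPM in spleen, which gave 59.1 times (95% interval 25.2 to 183) the summed-count level. It passed the count minimum there through the tumor libraries alone, and its 5 counts in treated spleens lie below the floor of 3 counts a library, so that its call is no more than this ratio.

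In untreated M-MDSC S100a8 and S100a9 were the members that fell in tumors, and S100a11 was higher (0.55 ± 0.16, adjusted p = 0.024), a call that ended without spleen library 1, 3 or 4 or tumor library 1 or 3. The share of all genes was 15.7% higher and 12.7% lower (12.4% and 19.2% under upper-quartile scaling). S100a6 (0.05 ± 0.24), S100a10 (0.42 ± 0.21) and S100a4 (-0.45 ± 0.18) did not pass, with adjusted p of 0.90, 0.17 and 0.084. Without the libraries that stood apart S100a10 was called higher in tumors (0.57, adjusted p = 0.023), a call gained by leaving out tumor library 4. The monocyte marker sum was 5776 CPM in spleen and 10673 CPM in tumor, and the macrophage marker sum 791 and 5414 CPM, and their part in the S100 changes was not tested. The change from spleen to tumor differed between the cell types for 3 members in an interaction test that called 37.5% of all genes: it was lower in PMN-MDSC for S100a6 (-1.89 ± 0.46, adjusted p = 0.0044) and S100a11 (-2.83 ± 0.27, adjusted p = 2.8e-06) and higher for S100a10 (2.01 ± 0.44, adjusted p = 0.0022). For S100a8 and S100a9 the difference was 0.81 ± 0.91 (95% interval -0.97 to 2.60) and 0.73 ± 0.78 (-0.80 to 2.26), with adjusted p of 0.50 and 0.48.

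The neutrophil markers moved with calprotectin between compartments. Their sum was 30780 CPM in splenic and 3243 CPM in tumor PMN-MDSC of untreated mice, and 4762 and 542 CPM in M-MDSC. The ratio of summed S100a8 and S100a9 to this sum had a median of 0.310 (range 0.242 to 0.443) in splenic PMN-MDSC, 0.272 (0.183 to 0.329) in tumor PMN-MDSC, 0.297 (0.275 to 0.325) in splenic M-MDSC and 0.122 (0.0418 to 0.214) in tumor M-MDSC. The 3 former groups overlapped and the last lay below splenic M-MDSC in every library. Granule genes of neutrophils were present in sorted M-MDSC of untreated spleens too, with Ngp at 2362 CPM (1211 to 3404). How far admixed neutrophil RNA made up the S100a8 and S100a9 of M-MDSC was not tested.

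Calprotectin transcripts took 0.817% ± 0.247 (SD, n = 4) of all counts in PMN-MDSC from untreated spleens and 1.57% ± 0.539 (n = 3) from treated spleens. In tumor PMN-MDSC the share was 0.0915% ± 0.0492 (n = 4) without and 0.246% ± 0.130 (n = 4) with treatment. M-MDSC held 0.175% ± 0.0649 and 0.105% ± 0.0867 in spleen and 0.00831% ± 0.00729 and 0.0123% ± 0.0148 in tumor. The mean log2 ratio of S100a8 to S100a9 counts was lowest in PMN-MDSC of untreated spleens, at -1.33. It was highest in M-MDSC of treated tumors, at -0.44, from libraries 2 and 4 at -1.04 and 0.17, and library 3, with 9 and 6 counts of the genes, was left out of this mean and stood at 0.58, so that 2 of the 3 libraries held more S100a8 than S100a9 counts.

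The effect of poly(I:C)c on MDSC was the question of the study, and 2 of the 3 member calls it gave were in PMN-MDSC from spleen. S100a8 rose from 1207, 4169, 3767 and 2894 CPM to 10498, 5515 and 8156 CPM (2.85-fold, log2 1.51 ± 0.41, adjusted p = 0.048). S100a6 rose from 281, 849.5, 469 and 382 CPM to 1039, 1252 and 1503 CPM (2.69-fold, log2 1.43 ± 0.33, adjusted p = 0.028). All treated libraries lay above all untreated libraries for both genes, and likewise for S100a9, which did not pass (log2 1.06 ± 0.34, adjusted p = 0.076). These were 2 members called higher and 0 lower of 5 tested, against 6.10% and 5.52% of 7261 genes (4.63% and 8.36% under upper-quartile scaling), and DESeq2 called 3. The calls were near the threshold. S100a8 lost its call when any library but treated library 2 was left out, S100a6 when any but untreated library 2 and treated library 1 was, and without untreated library 1, which stood apart, the changes were 1.24 (adjusted p = 0.072) and 1.24 (adjusted p = 0.063), so that 0 members were called. S100a11 stood at 0.21 ± 0.22 (95% interval -0.22 to 0.64, adjusted p = 0.59).

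S100a4 and S100a10 went down in the same cells but were too low to be tested under the count minimum. S100a4 was at 11.5, 5.75, 5.23 and 4.60 CPM in untreated and at 0.870, 0 and 0.505 CPM in treated splenic PMN-MDSC, or 73 against 2 counts in all. S100a10 was at 22.8, 25.2, 8.05 and 9.19 CPM and then at 1.74, 1.18 and 0.505 CPM, or 158 against 5 counts. The untreated level was 17.7 times the treated level for S100a4 (95% interval 4.72 to 149) and 15.3 times for S100a10 (6.42 to 47.8), intervals that cover counting error only. These ratios include untreated library 1, which stood apart and held 40 of the 73 counts of S100a4 and 79 of the 158 of S100a10. In the fit without a count minimum both were called, S100a4 at -3.82 ± 0.91 (adjusted p = 0.0010) and S100a10 at -3.78 ± 0.66 (adjusted p = 7.8e-07). Macrophage and some monocyte markers moved with them: the macrophage marker sum was at 953 CPM in untreated and 160 CPM in treated libraries, and Ccr2 at 103 CPM (44.6 to 240) and 1.77 CPM (1.18 to 2.61). Cd74 went from 1392 CPM (779 to 2762) to 77.0 CPM (58.1 to 96.5), and the erythroid marker sum from 99.2 to 2.13 CPM. The monocyte marker sum did not follow, at 1372 and 1509 CPM, and Ly6c2 went from 77.8 CPM (44.1 to 118) to 1216 CPM (793 to 1460). Ly6g was at 68.0 CPM in untreated and at 409 CPM in treated libraries. The neutrophil marker sum was at 30780 CPM (21646 to 39905) and 50840 CPM (37069 to 76365), which overlapped, and Csf3r went from 8185 to 4514 CPM. The part of these markers in the S100 changes was not tested.

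In PMN-MDSC from tumor 0 of 6 members were called by edgeR (2 at an unadjusted p under 0.05, 0 by DESeq2), against 2.29% of all genes higher and 1.07% lower. S100a8 was at 73.3, 417, 386 and 215 CPM without and at 347, 1042, 450 and 1632 CPM with treatment (log2 1.64 ± 0.61, 95% interval 0.45 to 2.83, adjusted p = 0.20). S100a9 changed by 1.34 ± 0.51 (0.33 to 2.35, adjusted p = 0.21). Untreated and treated libraries overlapped for both. In the same libraries the neutrophil marker sum was 3243 CPM (1357 to 4141) without and 6282 CPM (3359 to 8692) with treatment. Ly6g was at 2.90 and 31.8 CPM, the monocyte marker sum at 6631 and 2065 CPM and the macrophage marker sum at 11609 and 13477 CPM. The part of these markers in the S100 changes was not tested. The effect on S100a8 and S100a9 was not shown to differ between tumor and spleen, at 0.17 ± 0.79 and 0.31 ± 0.69 (adjusted p = 0.96 and 0.89). S100a10 was the exception among 6 members in that interaction, which called 3.50% of all genes: its effect was higher in tumor than in spleen by 3.40 ± 0.82 (adjusted p = 0.032), a call that rested on the 5 counts of treated spleens, ended in 9 of 15 fits with a library left out and reached 0.064 without the libraries that stood apart.

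In M-MDSC from spleen S100a4 was the 1 member that changed with treatment. It was at 65.6, 56.6, 54.5 and 58.6 CPM in untreated and at 20.1, 41.5, 21.8 and 9.84 CPM in treated libraries, which did not overlap (log2 change -1.36 ± 0.33, adjusted p = 0.019). The change was -1.08 without treated library 4, which held B and T cell markers and the lowest value, and was still called. The call ended without untreated library 1 or 4 or treated library 1, and in the fit without a count minimum (adjusted p = 0.10). Of 7 members tested, 0 were higher and 1 was lower, against 9.96% and 9.48% of all genes. Markers of monocytes moved in both directions in the same libraries, with Ccr2 at 1109 CPM (987 to 1289) in untreated and 170 CPM (77.2 to 269) in treated, Cd74 at 2046 and 352 CPM, Csf1r at 1266 and 1133 CPM, and Ly6c2, the gene of the sorting antigen, at 118 CPM (94.2 to 170) and 809 CPM (669 to 870). The monocyte marker sum was 5776 and 3140 CPM. The macrophage marker sum was 791 and 391 CPM and the neutrophil marker sum 4762 and 2248 CPM, and their part in the change of S100a4 was not tested. S100a8 and S100a9 were at -0.59 ± 0.59 and -0.74 ± 0.69 (adjusted p = 0.52 and 0.49). In M-MDSC from tumor 0 of 7 were called by edgeR (1 at an unadjusted p under 0.05, 0 by DESeq2; 1.82% of all genes higher and 1.06% lower). S100a4 was at 59.3, 35.4, 40.1 and 34.5 CPM without and at 24.1, 1.46 and 12.6 CPM with treatment (-1.81 ± 0.69, adjusted p = 0.19), and at -1.31 (adjusted p = 0.067) without the libraries that stood apart. Its groups did not overlap. The other members stood between -0.93 (S100a11) and 0.66 (S100a8).

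Within the spleen the treatment effect was compared between the cell types by an interaction term, which called 10.9% of all genes. For S100a6 the effect was higher in PMN-MDSC than in M-MDSC by 1.83 ± 0.42 (adjusted p = 0.015), and for S100a10 it was lower, at -3.56 ± 0.68 (adjusted p = 0.0067), a value that rests on the 5 counts of treated splenic PMN-MDSC, since S100a10 passed the count minimum through other groups. S100a8 stood at 2.15 ± 0.76 (adjusted p = 0.085) and S100a9 at 1.86 ± 0.81 (adjusted p = 0.15), and neither passed, but DESeq2 called S100a8 (adjusted p = 0.049), and edgeR without a count minimum called both (adjusted p = 1.5e-07 and 2.1e-05), with SE of 0.34 and 0.35 in place of 0.76 and 0.81. By edgeR 0 of 7 members differed in the same term within tumors (0.0239% of all genes), and 0 of 7 between tumor and spleen of M-MDSC (0.790% of all genes). In both, 0 members had an unadjusted p under 0.05 and DESeq2 called 0, but edgeR without a count minimum called S100a8 in the M-MDSC term (1.19 ± 0.32, adjusted p = 0.014).

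Calprotectin transcripts had a lower mean in bulk tumor than in every sorted group. S100a8 was at 0.520, 0.258, 0.834 and 0.820 CPM and S100a9 at 0.650, 4.65, 0.730 and 0.922 CPM, and together they made 0.000247% ± 0.000174 (SD, n = 4) of all counts. Compared with tumor PMN-MDSC, S100a8 was lower by a log2 change of -8.82 ± 0.69 (adjusted p = 2.8e-06) and S100a9 by -9.01 ± 0.84 (adjusted p = 1.3e-05), and compared with tumor M-MDSC by -5.42 ± 0.87 (adjusted p = 0.00022) and -5.49 ± 0.86 (adjusted p = 0.00021). Without the libraries that stood apart the changes against M-MDSC were -5.78 and -5.83. Bulk libraries held at most 8 counts of S100a8 and 18 of S100a9, so both genes passed the count minimum through the sorted cells alone. Their calls, counted among the lower members below, thus say no more than that bulk tumor held little of them. The neutrophil marker sum was 15.6 CPM (10.9 to 24) in bulk tumor, with 2 of 10 genes, Ly6g among them, at 0 in every library.

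S100a1 was called higher in bulk tumor than in both sorted tumor populations, and S100a6, S100a10 and S100a13 higher than in tumor PMN-MDSC. S100a6 was at 241, 160, 307.5 and 424 CPM in bulk tumor, and at 207 FPKM it was the leading member there per exon length, followed by S100a10 at 110 FPKM. Of 7 members tested against tumor PMN-MDSC, 4 were higher and 3 lower (36.9% and 32.8% of all genes), with S100a6 at 1.02 ± 0.31 (adjusted p = 0.012, lost without PMN-MDSC library 3 or 4), S100a1, a calcium sensor best known from muscle, at 1.28 ± 0.31 (adjusted p = 0.0032), S100a13 at 0.65 ± 0.21 (adjusted p = 0.016, lost without PMN-MDSC library 3) and S100a10 at 0.59 ± 0.18 (adjusted p = 0.011). Against tumor M-MDSC 6 of 8 were called, 1 higher and 5 lower, where 69.2% of all genes were called in either direction. S100a1 was the higher one (1.62 ± 0.40, adjusted p = 0.0033), at 24.7, 15.5, 29.7 and 34.9 CPM in bulk tumor and at most 10.3 CPM in M-MDSC. S100a4 was at 4.68, 1.81, 2.19 and 3.18 CPM in bulk tumor and lower than in M-MDSC (-3.94 ± 0.33, adjusted p = 1.0e-06). S100a11 was lower than in both sorted populations, by -1.64 ± 0.40 and -1.52 ± 0.38 (both adjusted p = 0.0039), and S100a10 was lower than in M-MDSC (-0.60 ± 0.23, adjusted p = 0.039), a call that ended when any library but M-MDSC library 4 was left out. Epithelial markers summed to 4622 CPM in bulk tumor, 303 CPM (87.4 to 600) in tumor PMN-MDSC and 110 CPM in tumor M-MDSC of untreated mice, and 4 fibroblast markers to 887 CPM in bulk tumor. The cells that supplied the S100a6, S100a10 and S100a1 of bulk tumor were not tested.

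The other 8 family genes added little. In the comparisons of sorted cells 0 of 8 reached the count minimum. In bulk tumor S100a16 stood at 19.4 CPM, S100g at 4.23 CPM and S100a14 at 2.44 CPM, and S100a16 was higher there than in tumor PMN-MDSC (2.92 ± 0.37, adjusted p = 2.7e-05) and tumor M-MDSC (4.23 ± 0.56, adjusted p = 4.1e-05).

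Receptors of released S100 proteins were counted as a list of 5: Ager (RAGE), Tlr4, its helpers Cd14 and Ly96, and Bsg. In untreated spleens 3 of 4 tested were higher and 1 was lower in PMN-MDSC (30.9% and 33.4% of all genes), with Ager at 2.98, Cd14 at 2.0 and Tlr4 at 1.75 on the log2 scale (adjusted p = 1.6e-05, 0.00017 and 0.0010). In treated spleens 2 of 3 were higher and 1 lower (28.8% and 32.4%). In tumors edgeR called 0 of 3 between the cell types without treatment (0 at an unadjusted p under 0.05, 0 by DESeq2; 7.25% and 5.73% of all genes) and 0 of 3 with it (2 at an unadjusted p under 0.05, 1 by DESeq2; 0.369% and 0.00%). From spleen to tumor Cd14 rose by 3.72 in untreated PMN-MDSC (adjusted p = 9.4e-06) and by 6.07 in untreated M-MDSC (adjusted p = 1.8e-07), and Tlr4 by 2.17 in M-MDSC (adjusted p = 8.2e-06). The counts were 2 of 3 higher in untreated and in treated PMN-MDSC, 3 of 3 in untreated and 2 of 3 in treated M-MDSC, with 0 lower in each, where the shares of all genes called higher were 29.4%, 28.2%, 15.7% and 5.20%. With treatment, Cd14 rose in splenic PMN-MDSC (1.91, adjusted p = 0.031), 1 of 4 tested against 6.10% of all genes called higher. In the other 3 treatment comparisons edgeR called 0 of 3 receptor genes each, with 1 at an unadjusted p under 0.05 in each, and DESeq2 called 1 in tumor PMN-MDSC (2.29% and 1.07% of all genes higher and lower by edgeR), 0 in splenic M-MDSC (9.96% and 9.48%) and 1 in tumor M-MDSC (1.82% and 1.06%). Bulk tumor held less Cd14 and Tlr4 and more Bsg than either sorted tumor population, with Cd14 at -5.46 against PMN-MDSC (adjusted p = 1.1e-08) and -5.70 against M-MDSC (adjusted p = 1.2e-07).

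Partners inside the cell made a list of 7: Anxa1, Anxa2, Anxa11, Ahnak, Myh9, Cacybp and Sugt1. In untreated spleens 4 were higher and 2 lower in PMN-MDSC (30.9% and 33.4% of all genes), led by Anxa11 (2.39, adjusted p = 2.8e-06), Myh9 (1.45, adjusted p = 2.0e-05) and Anxa1 (2.06, adjusted p = 6.6e-05), and in treated spleens again 4 and 2 (28.8% and 32.4%). Untreated tumor PMN-MDSC held less Ahnak (-1.59, adjusted p = 0.00063) and Anxa2 (-0.99, adjusted p = 0.0038), both partners of S100A10, than M-MDSC. From spleen to tumor of untreated PMN-MDSC 2 were higher and 4 lower (29.4% and 29.7%), with Anxa1 at -3.41 (adjusted p = 9.2e-06), Anxa11 at -2.58 (adjusted p = 2.2e-05) and Anxa2 at -2.03 (adjusted p = 0.00015), so that Anxa2 fell where S100a10 rose. In untreated M-MDSC Anxa1 was the 1 partner of 7 called (-1.10, adjusted p = 0.00011), against 15.7% of all genes higher and 12.7% lower. Ahnak fell with treatment in splenic PMN-MDSC (-2.81, adjusted p = 0.023), tumor PMN-MDSC (-1.27, adjusted p = 0.039) and splenic M-MDSC (-1.67, adjusted p = 0.00052), and was the 1 partner of 7 called in each of them, where 5.52%, 1.07% and 9.48% of all genes were called lower. In bulk tumor 2 partners were higher and 1 was lower than in tumor PMN-MDSC (36.9% and 32.8% of all genes), and 1 was higher and 3 were lower than in tumor M-MDSC (69.2% in either direction), with Anxa11 lower (-1.83, adjusted p = 0.00044, and -1.73, adjusted p = 0.00046) and Cacybp higher (1.21, adjusted p = 0.0021, and 1.19, adjusted p = 0.0017) in both.

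Transcription factors of myeloid cells tied to calprotectin expression were a list of 6: Cebpa, Cebpb, Cebpd, Cebpe, Spi1 (PU.1) and Stat3. In untreated spleens 4 were higher and 1 lower in PMN-MDSC (30.9% and 33.4% of all genes), with Cebpd at 2.78 (adjusted p = 4.7e-05), Spi1 at 1.13 (adjusted p = 0.00063) and Cebpa at -1.45 (adjusted p = 0.00084). In treated spleens 4 were higher and 0 lower (28.8% and 32.4%), with Cebpd at 3.38 (adjusted p = 8.3e-05). From spleen to tumor of untreated PMN-MDSC 2 were higher and 4 lower (29.4% and 29.7%), led by Cebpe (-3.34, adjusted p = 2.5e-05), a factor of granule gene expression, and Cebpd (-2.43, adjusted p = 0.00014). In untreated M-MDSC Cebpe was lower (-3.45, adjusted p = 6.4e-05) and Cebpb higher (1.80, adjusted p = 0.00019), among 2 higher and 3 lower (15.7% and 12.7% of all genes). With treatment Cebpb rose in splenic PMN-MDSC (1.32, adjusted p = 0.042) and in splenic M-MDSC (0.81, adjusted p = 0.049), where Cebpd (-1.13, adjusted p = 0.0039) and Cebpa (-1.51, adjusted p = 0.0048) fell. Bulk tumor held less of 4 of 5 tested factors than either sorted population, where 32.8% of all genes were called lower against tumor PMN-MDSC and 69.2% were called in either direction against tumor M-MDSC.

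Likeness of pattern was measured by Pearson's r of log2(CPM + 1) over the 34 libraries among 9794 genes, as a description, since the libraries share their groups. S100a8 was most like S100a9 (0.983), Megf9 (0.966) and Wfdc21 (0.965). After S100a8, S100a9 was most like Cd177 (0.958) and Ltf (0.956), both neutrophil genes. S100a10 was most like Capn2 (0.967), Rpl8 (0.941) and Tcof1 (0.937), S100a4 like Tppp3 (0.926), Apba1 (0.902) and Arhgef37 (0.897), and S100a6 like Anxa2 (0.882), Mindy1 (0.872) and Tuba1a (0.868). S100a11 was most like Gm12854 (0.977), Gm7665 (0.959) and Rchy1 (0.954), S100a1 like Kifap3 (0.891), Alg5 (0.889) and Tulp4 (0.885), and S100a13 like Vim (0.763), Eif6 (0.736) and Gm10093 (0.728). Among the members, r was 0.745 for S100a6 and S100a11, 0.667 for S100a4 and S100a10 and -0.714 for S100a10 and S100a11. S100a13 had no member above an r of 0.507.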

How the data were processed

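The deposited values are raw counts per gene, which the authors made by mapping reads to mm10 (GRCm38) with ContextMap and BWA and counting fragments by strand with featureCounts (Subread 1.4.6-p3) on a Gencode annotation, from SMARTer libraries depleted of ribosomal RNA. One column of 10 counts, an M-MDSC library from a treated tumor, was left out, leaving 34 of 35. The 48 pairs of libraries within groups had a chi-square per degree of freedom of 6.88 to 55.8, and 0 were identical.

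Symbols, positions and exon lengths came from GENCODE M21 by Ensembl identifier (53274 of 53379 matched). CPM were scaled by TMM, and FPKM were computed from them. Each comparison was fitted on its own libraries with edgeR 4.0.16 in R 4.3.3 (robust quasi-likelihood F-test, two-sided, TMM), over genes averaging 25 counts or more, and called at a Benjamini-Hochberg adjusted p under 0.05 over all genes tested. Differences between effects were interaction terms. Standard errors were the log2 change divided by the root of F, and 95% intervals came from them by the normal quantile. With so few libraries they are narrower than a t quantile would give. The test was checked on simulated counts. Alternatives were DESeq2 1.42.0, other scalings, the members left out of library sizes, other count minimums, 1 fit over all groups, no robust estimates, the study's thresholds (adjusted p under 0.001 and 2-fold) and each library left out, and, chosen after seeing the data, leaving out the 3 libraries that stood apart.

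By the naming rule the 8 members enter every comparison. Those that reached the count minimum are counted in each, and those the results turn on are given with values. Up to 3 called genes with the smallest adjusted p are named for each other list, and the 3 most similar genes for each member. The members and lists were chosen with earlier results of these data known. Comparisons share groups and so are not independent. The sample titles number the mice, while the columns carry running numbers that no label ties to the mice, so libraries of the same mouse were not matched and were treated as independent, and p-values measure the spread between these libraries.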

Additional observations from a re-analysis of the deposited data

Results flagged for a closer look

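In groups of 4 libraries, 5 of 56 tests found a library farther from the rest than Dixon's 95% critical value, where chance gives about 1 in 20. PMN-MDSC library 1 from untreated spleens was high for S100a1 (4.32 CPM, against 2.82 to 3.06) and for S100a4 (11.5 CPM, against 4.60 to 5.75), and is the library with Cd74 at 2762 CPM. Bulk tumor library 2 was high for S100a9 (4.65 CPM, against 0.650 to 0.922). M-MDSC library 2 from treated spleens was high for S100a10 (175 CPM, against 102 to 108), and M-MDSC library 1 from untreated tumors for S100a13 (45.7 CPM, against 33.2 to 34.1).

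Effects that differed between groups by a test of the difference were those of 3 genes. The treatment effect on S100a10 was 3.40 (log2) higher in tumor than in spleen PMN-MDSC and, within spleen, lower in PMN-MDSC than in M-MDSC by a difference of -3.56, and that on S100a6 within spleen was 1.83 higher in PMN-MDSC. Both values of S100a10 rest on its 5 counts in treated splenic PMN-MDSC, since it passed the count minimum through other groups. The call of 3.40 ended in 9 of 15 fits with a library left out. Without the libraries that stood apart its adjusted p in edgeR was 0.064. The change from spleen to tumor in untreated mice was lower in PMN-MDSC than in M-MDSC for S100a6 (-1.89) and S100a11 (-2.83) and higher for S100a10 (2.01).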

How the results depend on the processing

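Member calls by cell type (15), compartment (14), treatment (3), bulk tumor (13) and interaction (6) stayed within 1.5 times under DESeq2, RLE and upper-quartile scaling, members left out of library sizes, 1 fit over all groups and no robust estimates. At the study's thresholds there were 7 compartment, 0 treatment, 5 bulk and 1 interaction calls. Without a count minimum there were 5 treatment and 10 interaction calls, with at least 10 counts in every library 7 bulk calls, and without the 3 libraries that stood apart 1 treatment call. With each library left out in turn, treatment calls ranged from 1 to 3, the 1 arising without PMN-MDSC spleen untreated library 1, 3 or 4 or treated library 3. No paired analysis was possible because the columns carry running numbers and no mouse number, unless their order is taken as the match. The columns run through the groups in the same order as the sample titles, which number the mice. No label states that match, and a fit with the mouse as a block was not run, so its effect on the calls is not known.

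Directions turned for uncalled log2 changes. Upper-quartile scaling gave S100a13 -0.11 between cell types of treated spleens, S100a6 -0.10 from spleen to tumor of untreated M-MDSC and S100a11 0.0339 for the treatment effect of PMN-MDSC, tumor minus spleen. At least 10 counts in every library gave -0.0539 and -0.00551 for the former pair, and 0.0012 for S100a10 from spleen to tumor of treated M-MDSC. S100a13 in bulk tumor against M-MDSC was 0.0929 with DESeq2, 0.0923 with RLE, 0.20 with upper quartiles, 0.18 without a minimum and 0.39 with at least 10 counts. Without the 3 libraries, treated M-MDSC from spleen to tumor gave S100a6 0.0242, S100a11 0.24, S100a10 0.46 and S100a13 0.14, and the interactions gave S100a11 0.0404 (PMN-MDSC, by compartment), S100a4 0.0516 (M-MDSC, by compartment) and S100a10 -0.17 (tumor, by cell type). The causes were not tested.

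With 1 library left out, ranges that crossed 0 were, in untreated tumors between cell types, S100a11 -0.0105 to 0.21; from spleen to tumor, S100a6 -0.13 to 0.19 in untreated M-MDSC and, in treated M-MDSC, S100a6 -1.37 to 0.0242, S100a11 -0.64 to 0.24, S100a10 -0.39 to 0.46 and S100a13 -0.40 to 0.14. For treatment they were S100a6 -0.0032 to 0.63, S100a11 -0.14 to 0.28 and S100a13 -0.0739 to 0.22 in tumor PMN-MDSC, S100a13 -0.20 to 0.0337 in splenic M-MDSC, and S100a8 -0.42 to 1.22 and S100a9 -1.73 to 0.89 in tumor M-MDSC. In bulk tumor against M-MDSC S100a13 ranged from -0.10 to 0.11. For the treatment effect, tumor minus spleen, PMN-MDSC gave S100a11 -0.32 to 0.10, S100a8 -0.30 to 0.46 and S100a9 -0.0630 to 0.60, and M-MDSC gave S100a4 -1.37 to 0.13, S100a6 -1.40 to 0.0135, S100a10 -0.79 to 0.0880, S100a13 -0.53 to 0.0206 and S100a9 -1.05 to 1.63. Within tumors, by cell type, S100a4 ranged from -0.38 to 1.51 and S100a10 from -0.34 to 0.53.

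Depth limits S100a4 and S100a10 in splenic PMN-MDSC of treated mice and S100a8 and S100a9 in bulk tumor, which lie near the floor of 3 counts.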
